A study of Mus musculus with 12 samples.

Results

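Transcript levels of 10 jumonji histone lysine demethylases, Kdm2a, Kdm2b, Kdm3a, Kdm3b, Kdm4a, Kdm4b, Kdm4c, Kdm5a, Kdm5b and Kdm6b, were followed in mouse pre-iPSCs treated with ascorbic acid and inhibitors of MEK and GSK. The members were chosen by name, as enzymes that remove methyl groups from histone H3, and not by a rule on their measured values. Earlier results of these data were known when they were chosen. They are 10 of the 20325 genes in the files, all 10 were listed, and all 10 had at least 10 counts in every library.

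Pre-iPSCs are partially reprogrammed cells held before the pluripotent state. The study derived its fibroblast lines as single colonies from Nanog-GFP reporter fibroblasts carrying retroviral Oct4, Klf4, Sox2 and c-Myc, and the labels do not say which line gave these libraries. Cells were kept on irradiated feeders and treated for 48 h without them in serum-containing embryonic stem cell medium, with 1 of 4 additions. These were DMSO (the control), AA (ascorbic acid, 50 µg/ml), 2i (1 µM MEK inhibitor and 3 µM GSK inhibitor) or both together (AA+2i). Each condition had 3 biological replicates, named by the letters A to C, and the 12 RNA libraries held 16173322 to 54392719 counts, with a median of 21854761.

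Jumonji demethylases hold iron in a JmjC domain and use oxygen and 2-oxoglutarate to oxidise the methyl group, which then leaves the lysine as formaldehyde. Ascorbic acid helps to keep that iron in its reduced, active form, so it acts on the enzymes themselves, while RNA sequencing reads only the amount of their transcripts. The members differ in the lysine they act on. Kdm2a and Kdm2b act on H3K36, Kdm3a and Kdm3b on H3K9 with few methyl groups, Kdm4a, Kdm4b and Kdm4c on trimethylated H3K9 and H3K36, Kdm5a and Kdm5b on H3K4, and Kdm6b on H3K27.

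What the family shares is the iron site. The coding sequence around its first iron-binding residues is shown for 9 of the 10 members, without Kdm3b, in mm9 with the GENCODE annotation, as the stretch of coding exon that ties these transcripts to the same chemistry. The capitals mark 3 codons, which encode the iron-binding histidine, 1 residue that varies, and the iron-binding aspartate or glutamate. The site was found by translating the annotated transcripts, and each sequence is read 5′ to 3′ along the gene.
Kdm2a, chr19:4351758-4351814, minus strand, exon 8: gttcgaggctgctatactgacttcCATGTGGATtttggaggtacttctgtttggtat
Kdm2b, chr5:123399100-123399156, minus strand, exon 7: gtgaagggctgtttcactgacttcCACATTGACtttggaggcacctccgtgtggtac
Kdm3a, chr6:71542110-71542166, minus strand, exon 22: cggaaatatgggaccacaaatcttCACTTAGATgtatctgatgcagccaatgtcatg
Kdm4a, chr4:117841019-117841075, minus strand, exon 5: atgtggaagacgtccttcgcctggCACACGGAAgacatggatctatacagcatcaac
Kdm4b, chr17:56495394-56495450, plus strand, exon 5: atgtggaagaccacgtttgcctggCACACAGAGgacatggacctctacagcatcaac
Kdm4c, chr4:73944453-73944509, plus strand, exon 5: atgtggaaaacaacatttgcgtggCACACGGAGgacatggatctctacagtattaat
Kdm5a, chr6:120340786-120340842, plus strand, exon 11: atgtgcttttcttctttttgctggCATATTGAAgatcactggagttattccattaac
Kdm5b, chr1:136501133-136501189, plus strand, exon 11: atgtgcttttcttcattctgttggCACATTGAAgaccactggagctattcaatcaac
Kdm6b, chr11:69214845-69215038, minus strand, exons 17 and 18: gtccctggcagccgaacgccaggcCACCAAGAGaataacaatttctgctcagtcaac

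These stretches already differ in base composition, from a GC content of 35.1% in Kdm5a to 54.4% in Kdm6b. The whole transcripts differ in the same way, from 43.3% in Kdm5a to 59.6% in Kdm6b, against a median of 50.3% over all genes tested. The libraries differed in how counts depended on GC content, and values with a correction for it are therefore given beside the main ones.

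All 10 transcripts were present in every library, with counts from 144 to 12529. Levels are given in TPM, the share of transcripts on a fixed total, which takes transcript length into account and so can be set side by side between genes. Kdm3a was the highest of the 10 in all 12 libraries, with a group mean of 111 ± 25.0 TPM in DMSO (SD, n = 3). Kdm4b was the lowest or second lowest in every library and had 11.8 ± 9.15 TPM in DMSO. Between them in DMSO stood Kdm4c, Kdm2a, Kdm5b, Kdm3b, Kdm2b, Kdm4a, Kdm5a and Kdm6b, with group means falling from 69.5 to 13.4 TPM. The only neighbours in that order whose libraries did not overlap in DMSO were Kdm5a and Kdm6b. In 2i and in AA+2i, Kdm3a stood clear of the next member, Kdm4a, in the same way.

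**Figure D1:**
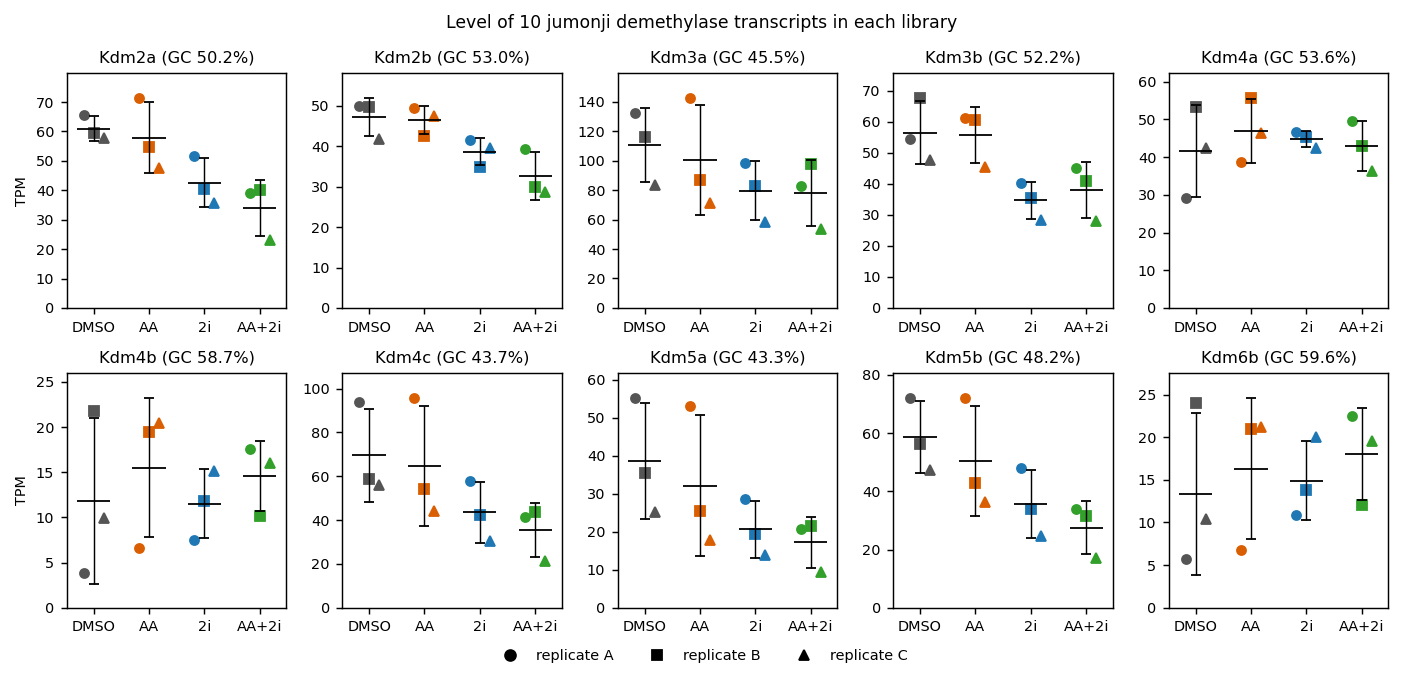
Level of each member in TPM (vertical axis, from 0) in the 12 libraries, by condition. Circles, squares and triangles are replicates A, B and C, the horizontal line is the mean and the error bar the SD over 3 libraries. Kdm3b is at 47.7 TPM or more in the 3 DMSO libraries and at 40.2 or less in the 3 in 2i, while Kdm4b and Kdm6b spread widely inside DMSO.

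The first question was whether 48 h of AA, 2i or both changed the amount of these transcripts. No member passed the adjusted threshold. In edgeR's quasi-likelihood test on counts, with an adjusted p under 0.05 as the threshold, 0 of the 10 members were called in AA, 0 in 2i and 0 in AA+2i, each against DMSO. The background was 1.34% of the 13400 genes tested called in AA, 4.42% in 2i and 8.34% in AA+2i. At an unadjusted p under 0.05 the members counted 0 in AA, 1 in 2i (Kdm3b) and 5 in AA+2i (Kdm2a, Kdm2b, Kdm4c, Kdm5a and Kdm5b, all lower), where the background was 9.43%, 16.1% and 24.8% of all genes. DESeq2 called 0, 0 and 2 members in the same comparisons (Kdm2a and Kdm5b in AA+2i), beside 3.39%, 8.2% and 14.0% of all genes, and limma on TPM called 0 in each. Before any correction for GC content, libraries of the same letter deviated together among DMSO, AA and 2i, but 2i B did so only weakly. Its deviations correlated at 0.177 with DMSO B and 0.241 with AA B, while those of 2i C reached 0.564 and 0.521 with the same libraries. With the letter as a block in edgeR's model, 0 members were called in AA and 3 in 2i (Kdm3b, Kdm5a and Kdm5b, all lower). The background there was 2.08% and 8.18% of all genes called lower. The 3 comparisons share the DMSO libraries, so an error in those libraries enters all of them.

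Before the GC correction, 7 of the 10 estimates were negative and 3 positive in 2i and in AA+2i, while in AA 5 were negative and 5 positive. The median log2 fold change of the 10 members was −0.03 in AA, −0.32 in 2i and −0.38 in AA+2i, beside −0.01, −0.02 and −0.02 over all genes tested. The values ran from −0.27 to 0.50 in AA, from −0.75 to 0.42 in 2i and from −1.0 to 0.71 in AA+2i. Kdm4a, Kdm4b and Kdm6b had positive estimates in all 3 comparisons, and the other members had negative ones in 2i and in AA+2i. The AA median ran from −0.11 to 0.07 as each library was left out, and the 2i median was −0.18 without DMSO A. On TPM the median of all genes itself lay 0.14 lower in 2i and 0.17 lower in AA+2i than on edgeR's scale (log2), so a lower TPM in these conditions holds that shift as well. In bulk RNA, fewer cells that use a gene and less RNA per cell cannot be told apart.

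**Figure D2:**
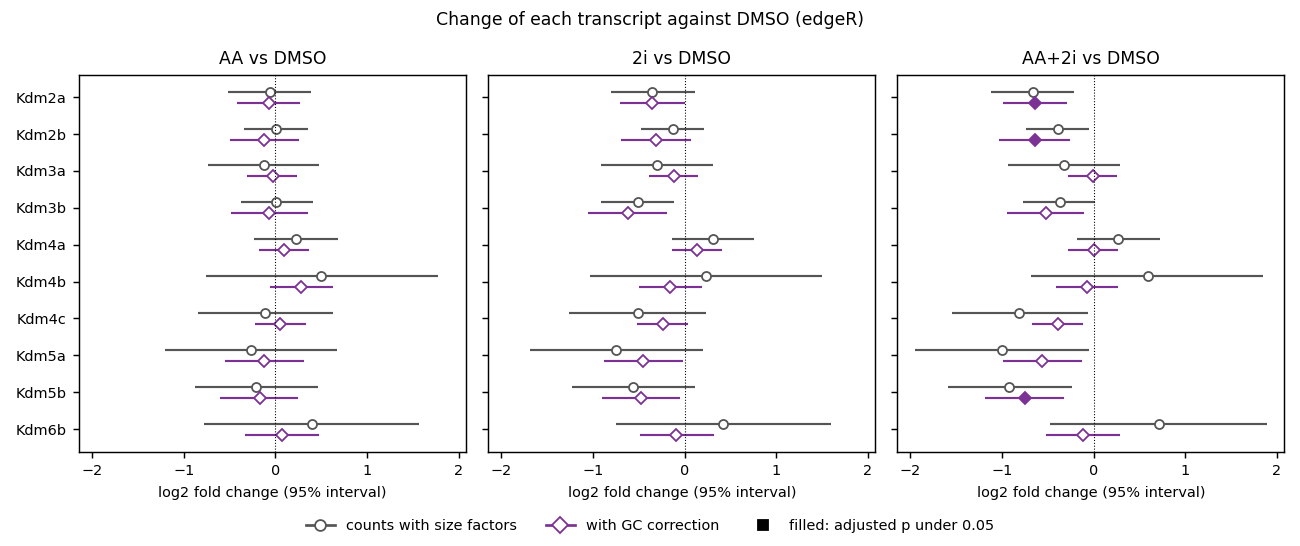
Log2 fold change of each member against DMSO (horizontal axis) with its 95% interval, for AA, 2i and AA+2i. Grey circles are the fit on counts with size factors, purple diamonds the fit with a GC curve for each library, and filled symbols have an adjusted p under 0.05. No grey symbol is filled, and the filled diamonds are Kdm2a, Kdm2b and Kdm5b in AA+2i.

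Kdm2a, of the H3K36 demethylases, had the lowest adjusted p of the 10 in edgeR's test without a correction. Kdm2a (chr19:4316170-4398266, minus strand, mm9) binds unmethylated CpG islands through a zinc finger and removes methyl groups from H3K36 there. Its levels were 65.8, 59.5 and 57.7 TPM in DMSO A, B and C, and 71.2, 54.7 and 47.6 in AA. They were 51.8, 40.4 and 35.5 TPM in 2i and 38.9, 40.1 and 23.2 in AA+2i. Every library in 2i or AA+2i lay below every DMSO library on TPM, whereas the AA libraries lay on both sides of them. The log2 fold change in AA+2i was −0.66 (SE 0.21, 95% interval −1.12 to −0.21), and its adjusted p was 0.0766 with edgeR and 0.0263 with DESeq2. In 2i alone it was −0.35 (−0.80 to 0.11, adjusted p 0.454), and in AA alone −0.06 (−0.52 to 0.39, adjusted p 0.966).

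Kdm2b (chr5:123320677-123465089, minus strand), the paralog that brings a variant Polycomb complex to CpG islands, had the smallest spread between replicates on uncorrected log2 CPM (SD 0.13 within conditions). It stood at 50.0, 49.7 and 41.7 TPM in DMSO, and at 49.5, 42.6 and 47.4 in AA. The 3 libraries in 2i had 41.5, 34.9 and 39.5 TPM, and the 3 in AA+2i had 39.3, 29.9 and 28.7, so both conditions lay below DMSO without overlap on TPM. In 2i this was narrow and did not hold on log2 CPM, where 2i C (6.56) lay above DMSO B (6.54). The log2 fold change was −0.13 in 2i (−0.48 to 0.21) and −0.39 in AA+2i (SE 0.16, −0.74 to −0.05, adjusted p 0.154). Kdm2b has several transcripts, only some of which encode the iron site, in the GENCODE annotation 6 of 10 coding ones. The mean transcript length that RSEM assigned to the gene, which moves with the isoforms used, was 4269 ± 253 bases in DMSO, 4271 ± 261 in AA, 4168 ± 75.3 in 2i and 4063 ± 138 in AA+2i (SD, n = 3). The lengths overlapped between DMSO (3977 to 4432) and AA+2i (3904 to 4154), so no shift in isoforms stood out from the spread between libraries.

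Of the H3K9 demethylases that act on mono- and dimethylated lysine, Kdm3b was the member with the clearest difference in 2i. Kdm3b (chr18:34936662-34999024, plus strand) had 54.4, 67.5 and 47.7 TPM in DMSO and 61.3, 60.5 and 45.5 in AA. In 2i it had 40.2, 35.6 and 28.4 TPM, and in AA+2i 45.1, 40.9 and 27.9. The AA libraries overlapped with DMSO, while all 6 libraries that received 2i lay below all 3 DMSO libraries. Its log2 fold change was −0.51 in 2i (SE 0.18, −0.91 to −0.12), with p 0.0156 before and 0.163 after adjustment in edgeR's test. With the replicate block it was −0.52 (SE 0.11) and the adjusted p 0.0166. With a GC correction described further on it was −0.62, with SE 0.20 and adjusted p 0.0617. With the correction and the block it was −0.62 as well, with SE 0.07 and adjusted p 0.000238. The values under the threshold thus depended on the block, and 2i B deviated only weakly with its letter before the GC correction. After it, Kdm3b fell from A to B to C in every condition, and the pairing over all genes was not checked on those values. In AA+2i the log2 fold change was −0.37 (−0.77 to 0.02, adjusted p 0.22), and in AA it was 0.01 (−0.38 to 0.41, adjusted p 0.993).

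Kdm3a (chr6:71538968-71582899, minus strand), a hypoxia-induced relative of Kdm3b, was the most abundant member and varied more between replicates. Its levels were 133, 116 and 83.4 TPM in DMSO, 142, 87.1 and 71.3 in AA, 98.2, 82.6 and 58.2 in 2i, and 83.1, 97.6 and 53.7 in AA+2i. Within each of the DMSO, AA and 2i groups replicate A was highest and C lowest, and the 4 groups overlapped. The log2 fold changes were −0.13 in AA, −0.30 in 2i and −0.32 in AA+2i, each with an SE of 0.28 and an adjusted p of 0.444 or more. Between Kdm3b and Kdm3a the difference in response was not tested.

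The Kdm4 enzymes, which act on trimethylated H3K9 and H3K36, did not move as a group. Kdm4c (chr4:73888401-74051764, plus strand) had 93.8, 58.6 and 56.1 TPM in DMSO and 95.6, 53.9 and 43.9 in AA. It had 57.9, 42.5 and 30.3 TPM in 2i and 41.2, 43.5 and 21.2 in AA+2i. The AA+2i libraries lay below the DMSO libraries without overlap, and the 2i libraries overlapped with them through replicate A. The log2 fold change in AA+2i was −0.81 (SE 0.34, −1.55 to −0.06, adjusted p 0.175), and in 2i it was −0.51 (−1.26 to 0.23, adjusted p 0.501).

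Kdm4a (chr4:117809562-117852648, minus strand) kept nearly the same mean in all conditions. Its group means were 41.6 ± 12.1 TPM in DMSO, 46.9 ± 8.48 in AA, 44.8 ± 2.20 in 2i and 43.0 ± 6.61 in AA+2i (SD, n = 3). The estimates were 0.22 in AA, 0.31 in 2i and 0.27 in AA+2i (log2), and the 95% intervals allowed changes from −0.23 to 0.76. On log2 CPM (counts scaled to library size) its 2i libraries, at 6.78, 6.82 and 6.82, lay above the DMSO libraries, at 6.09, 6.70 and 6.63, and on TPM the same groups overlapped.

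Kdm4b (chr17:56465485-56542293, plus strand) varied most inside the DMSO group. Its DMSO libraries had 3.79, 21.8 and 9.88 TPM, and the other groups lay inside that range, with 6.64, 19.4 and 20.5 in AA, 7.53, 11.8 and 15.2 in 2i, and 17.6, 10.2 and 16.0 in AA+2i. The 95% interval of its log2 fold change in AA+2i reached from −0.68 to 1.85, so without a correction for GC content neither a rise nor a fall of that size could be told from the spread. With the correction the interval was −0.41 to 0.27.

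The H3K4 demethylases had the largest negative estimates in AA+2i before the GC correction, and Kdm5a ranked behind Kdm2a and Kdm2b after it. Kdm5b (chr1:136456748-136529454, plus strand), which removes methyl groups from H3K4 at promoters, had 72.0, 56.4 and 47.4 TPM in DMSO and 72.0, 42.9 and 36.3 in AA. In 2i it had 48.1, 33.9 and 24.8 TPM, and in AA+2i 33.9, 31.6 and 17.1. The highest AA+2i library lay below the lowest DMSO library, and DMSO C and 2i A overlapped. Its log2 fold change in AA+2i was −0.92 (SE 0.31, −1.59 to −0.24), and its adjusted p was 0.0957 with edgeR and 0.0463 with DESeq2. In 2i it was −0.56 (−1.23 to 0.12, adjusted p 0.416, or 0.0319 with the replicate block).

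Kdm5a (chr6:120314117-120394592, plus strand), first known as a partner of the retinoblastoma protein, had 55.2, 35.4 and 25.1 TPM in DMSO and 53.1, 25.6 and 17.8 in AA. It had 28.6, 19.5 and 13.8 TPM in 2i and 20.7, 21.5 and 9.31 in AA+2i, and in the AA+2i group every library lay below DMSO. The log2 fold change was −1.0 in AA+2i (SE 0.43, −1.95 to −0.05, adjusted p 0.181) and −0.75 in 2i (−1.69 to 0.20, adjusted p 0.44, or 0.0419 with the replicate block). Kdm5a has the lowest GC content of the 10, and with the GC correction its estimate in AA+2i was −0.56 (adjusted p 0.0666).

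Kdm6b (chr11:69212010-69227177, minus strand), the H3K27 demethylase of the group, had 5.70, 24.0 and 10.4 TPM in DMSO, 6.76, 21.0 and 21.2 in AA, 10.9, 13.8 and 20.0 in 2i, and 22.4, 12.02 and 19.6 in AA+2i. Like Kdm4b it was lowest in the A libraries of DMSO, AA and 2i but highest in that of AA+2i. The log2 fold change in AA+2i was 0.71 with an SE of 0.54 (−0.47 to 1.89, adjusted p 0.382), and the 4 groups overlapped.

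Counted over the members, 6 of the 10 (Kdm2a, Kdm2b, Kdm3b, Kdm4c, Kdm5a and Kdm5b) had all AA+2i libraries below all DMSO libraries on TPM, where 22.5% of all genes tested did. In 2i the count was 3 (Kdm2a, Kdm2b and Kdm3b) against a background of 14.7%, and in AA it was 0 against 4.13%. On log2 CPM, which leaves out the shift of the TPM scale, the same 6 members stood apart in AA+2i against a background of 15.6%. In 2i on that scale 1 member was lower (Kdm3b, background 10.7%) and 1 higher (Kdm4a, background 9.25%).

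The order of the members' responses followed the GC content of their transcripts. Over the 10 members the log2 fold change against DMSO and the GC content had a Pearson's r of 0.92 in AA, 0.85 in 2i and 0.88 in AA+2i, against 0.27, 0.32 and 0.42 over all 13303 genes tested that had a GC content. These are descriptions over genes that share the same libraries. Kdm5a and Kdm4c, with the lowest GC content, had the most negative estimates in AA+2i beside Kdm5b, and Kdm4b and Kdm6b, with the highest, had the most positive. The libraries themselves differed along this axis: a smooth curve of log2 CPM on GC content put DMSO A 1.63 below the mean of the 12 libraries at the GC content of Kdm6b and AA+2i C 1.08 above it. At the GC content of Kdm5a the same libraries lay 0.67 above and 0.46 below. By condition, the curve at the GC content of Kdm6b was −1.63, 0.37 and −0.12 in DMSO A, B and C. It was 0.47, −0.06 and 1.08 in AA+2i, where A and C lay above all DMSO libraries and B did not. A treatment change that follows GC content cannot be told apart from such library differences, and the correction removes both.

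**Figure D3:**
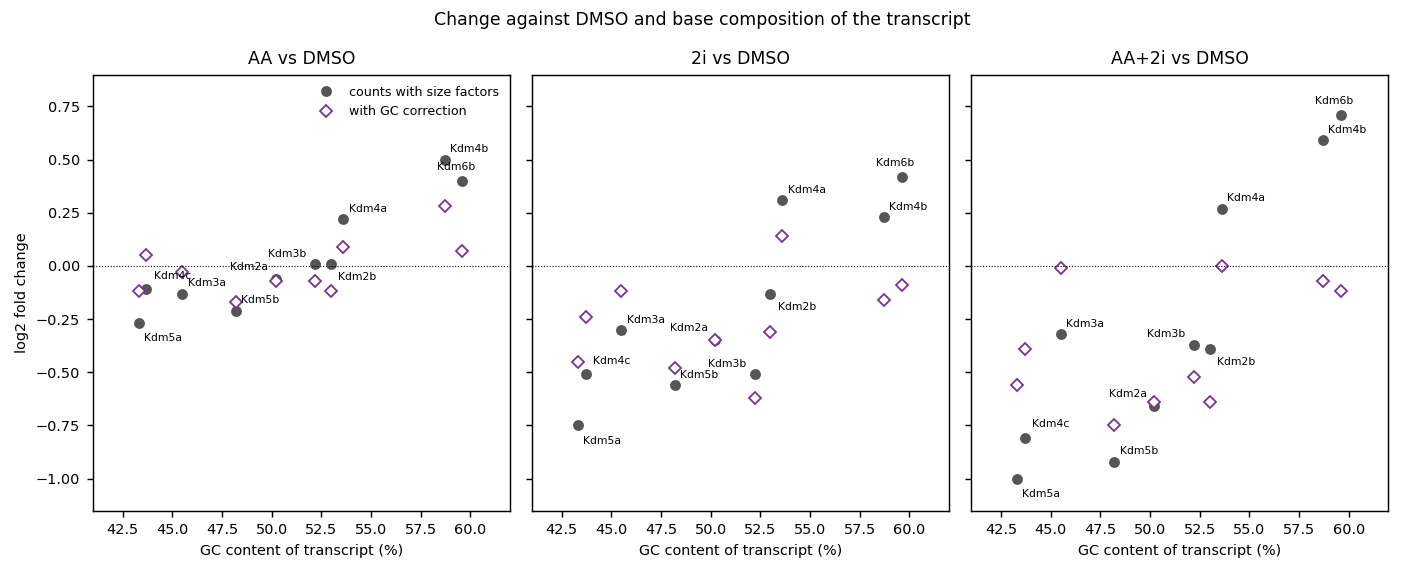
Log2 fold change of each member against DMSO (vertical axis) by the GC content of its transcript in percent (horizontal axis). Filled grey circles are from counts with size factors and open purple diamonds from the fit with the GC correction. The grey points climb from Kdm5a at 43.3% to Kdm6b at 59.6% in all 3 comparisons, and the diamonds lie flatter.

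When each library's GC curve was entered in the model (the GC correction), the spread between replicates of a condition fell for 8 members and rose for Kdm2b and Kdm3b. For Kdm4b the SD within conditions went from 0.85 to 0.18 on log2 CPM, for Kdm6b from 0.78 to 0.24, and for Kdm5a from 0.59 to 0.27. For Kdm2b it went from 0.13 to 0.23 and for Kdm3b from 0.18 to 0.26, against 0.41 to 0.26 for the median gene. Over the 10 members, Pearson's r of the corrected change with GC content was 0.57 in AA, 0.35 in 2i and 0.37 in AA+2i. Over all genes with a GC content it was −0.01, −0.03 and −0.03, so part of the trend stayed in the members.

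With the GC correction 3 members passed the threshold in AA+2i, all lower: Kdm2a, Kdm2b and Kdm5b. The background in that fit was 10.7% of 13303 genes lower in AA+2i. The log2 fold change was −0.64 for Kdm2a (SE 0.16, adjusted p 0.0154), −0.64 for Kdm2b (SE 0.18, adjusted p 0.0234) and −0.75 for Kdm5b (SE 0.20, adjusted p 0.0189). As each of the 12 libraries was left out in turn, the estimates stayed between −0.72 and −0.50 for Kdm2a, −0.79 and −0.45 for Kdm2b, and −0.89 and −0.60 for Kdm5b. The calls did not all hold, since 0 members passed without DMSO A or without AA+2i C, and 1 (Kdm2a) passed without AA+2i B. With any other single library left out, 3 to 5 passed, and the 5 without DMSO C held Kdm3b and Kdm5a as well.

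The median of the 10 in this fit was −0.46 in AA+2i and −0.28 in 2i, beside −0.01 over all genes in each. Just beyond the threshold in AA+2i were Kdm4c at −0.39 (adjusted p 0.0523), Kdm5a at −0.56 and Kdm3b at −0.52 (adjusted p 0.0807). Kdm3a, Kdm4a, Kdm4b and Kdm6b came close to 0, with estimates of −0.01, 0.00, −0.07 and −0.12, and their intervals lay between −0.52 and 0.29. The sign of Kdm4a, Kdm4b and Kdm6b in AA+2i thus depended on the correction. In 2i alone with the correction 0 members passed (background 7.48% lower), and Kdm3b had −0.62 (SE 0.20, −1.05 to −0.19, adjusted p 0.0617). With the replicate block as well, 5 passed in 2i (Kdm2a, Kdm2b, Kdm3b, Kdm5a and Kdm5b, all lower), beside 14.2% of all genes lower. In AA alone 0 members passed (background 1.62% lower), and the 10 estimates lay between −0.17 and 0.28.

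**Figure D4:**
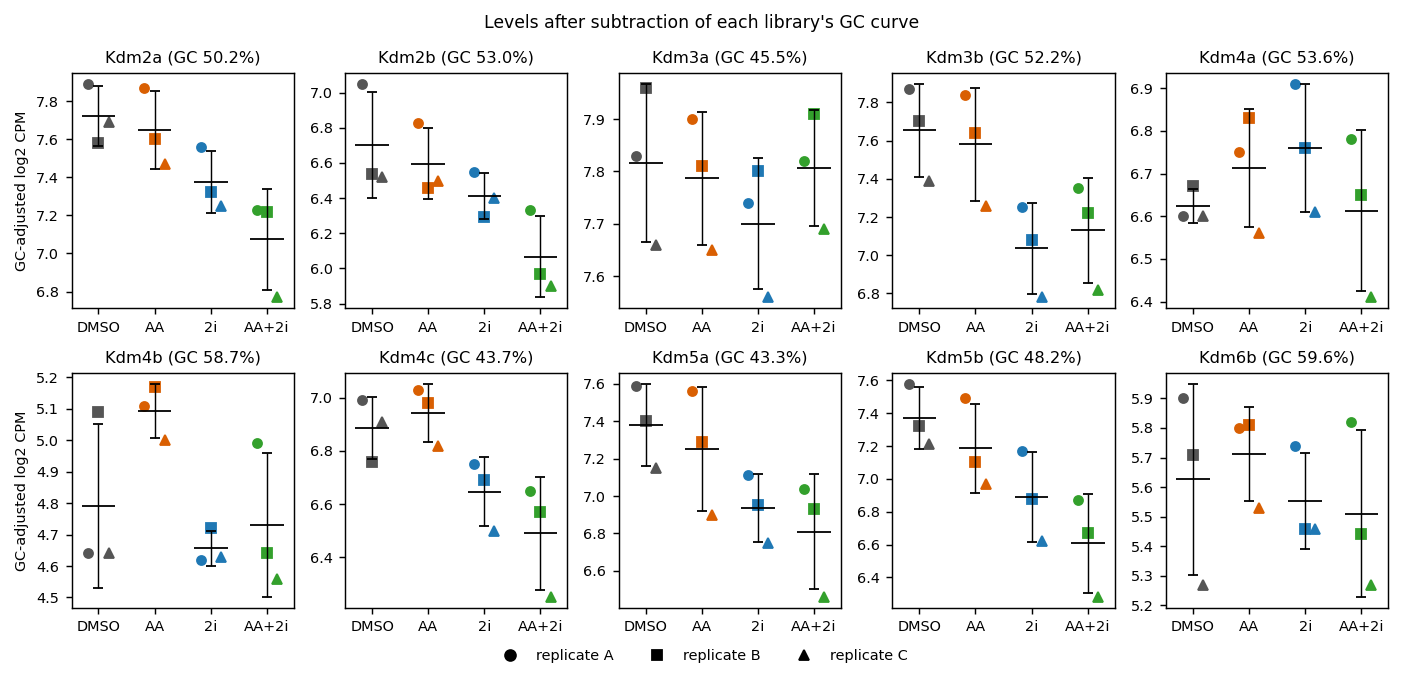
Log2 CPM of each member after subtraction of its library's GC curve (vertical axis, not from 0), by condition. Symbols are replicates A, B and C, lines and error bars the mean and SD over 3 libraries. Kdm2a, Kdm2b, Kdm3b, Kdm4c, Kdm5a and Kdm5b have all AA+2i libraries below all DMSO libraries, and Kdm3a stays between 7.56 and 7.96.

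On the adjusted values Kdm3b stood at 7.87, 7.70 and 7.39 in DMSO and at 7.25, 7.08 and 6.78 in 2i (log2 CPM). Kdm5b stood at 7.58, 7.32 and 7.21 in DMSO and at 6.87, 6.67 and 6.28 in AA+2i. Neither pair of groups overlapped. In 2i, 5 members (Kdm2a, Kdm3b, Kdm4c, Kdm5a and Kdm5b) lay wholly below DMSO on these values, against a background of 15.2% of all genes, and in AA+2i 6 did, against 17.6%. In AA the count was 0, against 8.09% of all genes lower and 8.87% higher.

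The next question was what each component added to the other. Against 2i, AA+2i gave 0 calls among the members (background 0.91%), with estimates from −0.36 to 0.36. Kdm3b had 0.14 (−0.25 to 0.53) in this comparison and Kdm2a had −0.31 (−0.77 to 0.14). Against AA, AA+2i gave 0 calls as well (background 6.10%). At an unadjusted p under 0.05 Kdm2a (−0.60, adjusted p 0.137), Kdm2b (−0.40, adjusted p 0.199) and Kdm5b (−0.70, adjusted p 0.264) were lower in edgeR's test, where 17.0% of all genes passed. With the GC correction Kdm2a (−0.57, adjusted p 0.0333) and Kdm4c (−0.44, adjusted p 0.0369) passed against AA, beside 8.45% of all genes lower. Neither passed when AA A, AA B, 2i B, AA+2i B or AA+2i C was left out, and 2 or 3 members passed without any other library.

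Whether AA acted differently in the presence of 2i was tested by the interaction, for which 0 members were called (background 0.0149%) and 0 had an unadjusted p under 0.05 (background 2.31%). The estimates ran from −0.27 to 0.12, with 95% intervals that for Kdm4b reached from −1.93 to 1.64 and for Kdm2b from −0.76 to 0.22. For no member was the response to AA shown to differ between cells with and without 2i.

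Other enzymes of the same chemistry were looked at next. Of 21 further JmjC-domain genes listed, 20 were in the files and 19 were tested, and 0 were called against DMSO in AA, 2i or AA+2i, while 0, 2 and 4 had an unadjusted p under 0.05, against the 9.43%, 16.1% and 24.8% of all genes. Their median log2 fold change was 0.05 in AA, −0.01 in 2i and −0.17 in AA+2i, nearer to 0 in 2i and AA+2i than that of the 10 members, and the difference between the lists was not tested. Kdm6a, the X-linked H3K27 demethylase, had group means of 47.0 ± 16.0 TPM in DMSO, 42.9 ± 20.9 in AA, 26.7 ± 8.23 in 2i and 24.9 ± 7.82 in AA+2i, and its log2 fold change in AA+2i was −0.75 (SE 0.36, adjusted p 0.218 in edgeR's test). Jmjd1c, the third relative of Kdm3a and Kdm3b, had 92.8 ± 24.9 TPM in DMSO and 58.8 ± 19.5 in AA+2i, at −0.48 (SE 0.33, adjusted p 0.34). Kdm4d, a testis-enriched relative of Kdm4a, was at 0.18 TPM or less in every library. With the GC correction 3 of 18 (Hif1an, Jhdm1d and Phf2) passed as lower in AA+2i, against 10.7% of all genes. Hif1an and Mina passed as lower in AA+2i against AA, where 8.45% of all genes were called lower. These 4 genes are named because they passed, after their values were seen. With the replicate block 1 of the 19 (Jhdm1d) was called in AA and 1 (Jhdm1d) in 2i, both lower. The background there was 2.08% and 8.18% of all genes called lower.

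Kdm1a, which removes methyl groups from H3K4 with a flavin in place of iron, was higher than all 10 members in DMSO, at 141 ± 21.8 TPM. It had 114 ± 23.8 in AA, 104 ± 21.7 in 2i and 86.5 ± 19.6 in AA+2i, and its log2 fold change in AA+2i was −0.53 (SE 0.22, adjusted p 0.169 in edgeR's test). Neither it nor Kdm1b was called in any comparison.

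Among 18 tested histone methyltransferases, the enzymes that write these marks, 1 was called in AA+2i, against 8.34% of all genes, and 0 in AA or in 2i. Suv39h1, which trimethylates H3K9, had 90.8, 92.5 and 86.5 TPM in DMSO and 46.7, 55.6 and 41.1 in AA+2i. It fell in AA+2i, by 0.71 on the log2 scale (SE 0.15, adjusted p 0.015 in edgeR's test), and had −0.40 in 2i (adjusted p 0.205) and −0.30 in AA (adjusted p 0.641). The median of the 18 was −0.35 in AA+2i and −0.37 in 2i, beside −0.38 and −0.32 for the 10 demethylases. With the GC correction those medians were −0.17 and −0.26 for the 18 and −0.46 and −0.28 for the demethylases. In that fit 3 of the 18 passed as lower in AA+2i (Suv39h1, Wbp7 and Whsc1l1, against 10.7% of all genes) and 2 in 2i (Ezh1 and Suv39h1, against 7.48%). With the replicate block 0 of the 18 were called in AA and 3 in 2i (Ezh1, Mll3 and Whsc1l1, all lower). The background there was 2.08% and 8.18% of all genes called lower.

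Markers of cell state also moved with the conditions. Summed over 6 pluripotency genes, levels were 133 to 255 TPM in DMSO, 1550 to 2100 in AA, 52.3 to 67.4 in 2i and 672 to 958 in AA+2i. Summed over 5 intermediate-stage genes they were 145 to 184, 264 to 381, 133 to 157 and 289 to 346 TPM, and over 9 fibroblast genes 3.59 to 11.0, 8.50 to 19.4, 4.36 to 4.59 and 6.78 to 9.27. Thy1 was the largest part of the fibroblast sum in DMSO and AA and was highest in AA, at 6.69, 15.1 and 16.0 TPM, against 1.23, 1.68 and 0.54 in 2i, and Lum was listed at 0 in every library. The collagens of that list (Col1a1, Col1a2 and Col3a1) were low but had higher means in 2i and AA+2i than in DMSO. Col3a1 had 0.133 ± 0.0814 TPM in DMSO, 0.357 ± 0.0462 in 2i and 0.56 ± 0.0854 in AA+2i. Of 6 fibroblast genes tested, edgeR's test called only Col3a1 in AA+2i against DMSO, beside 8.34% of all genes. The pluripotency sum, most of it Dppa5a and Tdgf1, was higher than in DMSO in AA+2i and lower in 2i. Its genes did not all follow it, since Nanog had 4.41 ± 2.37 TPM in DMSO and 6.08 ± 1.01 in 2i, and Tdgf1 had 123 ± 38.3 in DMSO and 127 ± 15.5 in AA+2i (SD, n = 3). On TPM Kdm2a, Kdm2b and Kdm3b were lower than in DMSO in both 2i and AA+2i. On log2 CPM only Kdm3b among these lay wholly below DMSO in 2i. The part of cell state in the members' values was not tested.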

How the data were processed

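Per the labels and the study's methods, TruSeq libraries were sequenced as single reads, trimmed and quality-filtered, aligned with Bowtie to annotated RefSeq transcripts of mm9 and quantified with RSEM 1.2.4 without strand, so reads from overlapping or antisense genes cannot be told apart. For each library the authors deposited, per gene, an expected count, which RSEM estimates and which need not be whole, a TPM value and a mean transcript length in bases. The submitters' processing notes name these tools and the build.

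Expected counts were rounded. The 13400 of 20325 genes that reached 10 counts in 3 or more libraries were fitted with edgeR 4.0.16 in R 4.3.3, as 1 quasi-likelihood model of 4 group means with RLE size factors and 8 residual degrees of freedom, and p-values were adjusted over all genes tested by the Benjamini-Hochberg method at 0.05. The study's own test (EBSeq) was not run. The GC correction was a robust loess curve (span 0.4) fitted in each library to how far log2 CPM (prior count 2) lay from the gene's mean, by transcript GC content, entered as an offset for 13303 genes. The GC content of each gene was taken from annotated transcripts, matched by symbol for 19871 genes and by accession or synonym for 159, and 295 stayed unmatched. Levels were compared between genes on the deposited TPM only. The TPM cell of 1 gene in AA C could not be read and that gene was left out of TPM fits.

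The alternatives were TMM factors, DESeq2 1.42.0, limma 3.58.1 on log2(TPM + 1) and log2(TPM + 0.1), dropping the count filter, requiring 10 counts in all libraries, fitting the compared groups alone, a replicate block, the GC correction alone and with the block, and leaving out each replicate letter and each library. The GC correction with each library left out was added after seeing the data. Same-letter libraries were checked for pairing by the correlation of their deviations from the group means, on log2 CPM without the GC correction. It was 0.177 to 0.894 over the 9 pairs among DMSO, AA and 2i, and lowest for 2i B. Block values are given for AA and 2i against DMSO, from a fit on all 12 libraries that also blocked AA+2i by letter. For AA+2i, block results are given further on only as counts called and as the estimates of Kdm4a, Kdm4b and Kdm6b. All 10 members are described, and of the other demethylases and the methyltransferases those called, Kdm6a, Kdm1a, Jmjd1c and Kdm4d. Marker lists are given as sums, with single genes named beside them. The members and lists were chosen with earlier results of these data known. The scripts were tested on simulated data. Read depth limits precision little here, since the lowest member had 144 counts, and the spread between replicates sets the errors.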

Additional observations from a re-analysis of the deposited data

How the results depend on the processing

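The count of members called was 0 in all 6 comparisons in the edgeR fit and stayed 0 under TMM factors, limma, either count filter and the models of only the groups compared, and whenever a replicate letter or a single library was left out without the GC correction. With AA+2i against DMSO it was 2 with DESeq2, 3 with the GC correction, 6 with the replicate block and 6 with the correction and the block. Of all genes, 14.0%, 19.7%, 31.6% and 36.2% were called in those fits, in either direction. With 2i the count was 3 with the block (Kdm3b, Kdm5a and Kdm5b) and 5 with both, beside 13.3% and 24.7% of all genes. For AA+2i against AA it was 2 with the correction, 4 with the block and 6 with both, beside 15.0%, 14.9% and 27.6%. Against 2i it was 1 with both, beside 11.5%. With the GC correction and each library left out in turn, 0 to 5 members were called with AA+2i, 0 to 1 with 2i and 0 to 3 for AA+2i against AA. The cause of these differences was not tested.

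On log2 CPM without the GC correction, the replicate letters did not clearly pair AA+2i with the other conditions. On GC-adjusted values Kdm3b, Kdm5a and Kdm5b fell from A to B to C in every condition, AA+2i among them. The other members did not keep that order throughout, and pairing on adjusted values was not tested. The block was nevertheless fitted on all 12 libraries, AA+2i among them, and no block fit without AA+2i was run. Over 18 pairs of same-letter libraries of different conditions, the correlation of deviations from the group means ran from −0.588 to 0.894 with a mean of 0.401, and it was over 0.1 in 15. AA+2i B correlated better with the A libraries of the other conditions (up to 0.769) than with any library of its own letter (up to 0.067). DMSO B likewise correlated better with 2i C (0.564) than with 2i B (0.177), so the pairing was also weak for 2i B. The replicate block also raised the share of all genes called with AA+2i from 8.34% to 31.6%.

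Signs near 0 turned. With AA, Kdm2b had −0.02 with limma at either pseudocount, −0.12 with the GC correction and −0.11 with correction and block. Kdm3b had −0.02, −0.07 and −0.07 in the same fits, and Kdm4c had 0.05 with the correction, with and without the block. With AA+2i and the correction, Kdm4a had 0.00 (−0.01 with the block), Kdm4b −0.07 (−0.07) and Kdm6b −0.12 (−0.12). With 2i Kdm4b had −0.16 (−0.15) and Kdm6b −0.09 (−0.07). As letters and libraries were left out without the correction, the AA value ran from −0.20 to 0.04 for Kdm2a, −0.03 to 0.08 for Kdm2b, −0.42 to 0.07 for Kdm3a, −0.06 to 0.12 for Kdm3b, −0.45 to 0.21 for Kdm4c, −0.78 to 0.15 for Kdm5a and −0.51 to 0.01 for Kdm5b, and the 2i value from −0.17 to 0.87 for Kdm4b.

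Depth was not the limit for these transcripts. The errors come from the spread between 3 libraries a condition, and for 8 of the 10 members that spread was smaller with the GC correction.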

Other observations

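Outside the 10 members, Jhdm1d, a jumonji demethylase of H3K9 and H3K27 with few methyl groups, had the largest negative estimate of the other JmjC genes in AA+2i and was chosen for description after its values were seen. Its levels were 58.8, 38.4 and 15.9 TPM in DMSO, 38.2, 15.3 and 9.69 in AA, 21.0, 12.4 and 5.90 in 2i, and 11.4, 10.1 and 3.30 in AA+2i. The AA+2i libraries lay below the DMSO libraries without overlap. The log2 fold change in AA+2i was −2.03 (SE 0.64, adjusted p 0.0793 in edgeR's test), and with the GC correction it was −1.41 (SE 0.34, adjusted p 0.0127). With the replicate block Jhdm1d was called lower in AA and in 2i.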
